A study of Mus musculus with 8 samples.

Results

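The genes described here are 36 genes that mark blood vessels: 24 endothelial identity genes, 6 genes of angiogenic signals, 3 pericyte genes and 3 smooth muscle genes. They were chosen by name, and each matched exactly 1 row among the 47643 genes of the table. RNA was taken from snap-frozen quadriceps of C57BL/6 mice (congenic with C57BL/6J by the study's methods) that were either Nup210+/+ or Nup210-/-, with 4 animals of each genotype and 1 library per animal. The knockout is constitutive: exon 2 of Nup210, which encodes a transmembrane protein of the nuclear pore, was flanked by loxP sites and removed by crossing to Hprt-Cre, so endothelial and mural cells carry the deletion as muscle fibers do. The labels name no treatment of these animals, and their age and sex are not given in the sources used here. The question was whether vascular genes differ in muscle that lacks Nup210.

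Endothelial cells line vessels and hold together through junction proteins such as VE-cadherin, while mural cells wrap them from outside, as smooth muscle cells on arterioles and as pericytes on capillaries. Muscle fibers secrete VEGF, which acts on receptor tyrosine kinases of the endothelium, and mural cells secrete angiopoietin 1, which acts on Tie2 and keeps vessels quiescent. In skeletal muscle the capillary bed is dense, so endothelial RNA makes a steady contribution to RNA of the whole tissue. In RNA of a whole tissue, fewer cells of a type and less RNA per cell cannot be told apart.

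Values are TPM: estimated reads per unit of transcript length, rescaled so that each library adds up to 1000000. The read depth behind them is unknown, so precision rests on the spread between animals. The tissue matched its label: 8 muscle fiber genes summed to 95010 to 102930 TPM in Nup210-/- and 88387 to 95387 TPM in Nup210+/+. Nup210 itself was not lower in the libraries labelled Nup210-/-, with 8.81 to 11.9 TPM against 5.71 to 10.1 TPM (log2 fold change 0.44, SE 0.15, limma adjusted p = 0.231), and a value for the whole gene does not resolve the deleted exon. The genotypes below are therefore those of the labels. The library of Nup210+/+ replicate 2 stood apart: 340 tested genes exceeded their level in each of the other 7 libraries by more than 2 times, where 12 to 84 genes did so elsewhere, 6 granulocyte precursor genes summed to 382 TPM against 0.31 to 2.12 TPM, and 4 Y-linked genes summed to 9.07 TPM against 0 to 0.7 TPM.

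Markers of other cell types were measured in the same libraries. All 10 tested leukocyte genes had lower estimates in Nup210-/-, 1 of them past the adjusted threshold, where 0.112% of all genes tested were. On scaled TPM the genotypes did not overlap for 6 of the 10, all lower, where 4.6% of all genes were. Their list of 12 summed to 141 to 157 TPM in Nup210-/- against 171 to 335 TPM in Nup210+/+, without overlap. The T cell gene Cd3e had means of 0.125 and 0.21 TPM, and the B cell gene Cd79a was at 0 in 3 Nup210-/- libraries. All 8 fibroblast genes also had lower estimates, with none past the adjusted threshold and overlapping sums of 1299 to 1472 TPM against 1368 to 2549 TPM, and none of these 8 was at 0 in any library. The part of these values in the vascular results was not tested.

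All 36 vascular genes were detected in every library. The highest means over the 8 libraries belonged to Vegfa (141 TPM), the principal endothelial growth factor, to the water channel Aqp1 (126 TPM), to the pericyte regulator of G-protein signaling Rgs5 (113 TPM) and to the capillary surface protein gene Ly6c1 (101 TPM). The apelin gene Apln (0.851 TPM), the NG2 proteoglycan gene Cspg4 (1.52 TPM) and the lymphatic VEGF receptor gene Flt4 (1.73 TPM) were the lowest. Among the defining endothelial genes, Pecam1 (23.98 TPM) and Cdh5 (20.4 TPM), which encodes VE-cadherin, were close to each other, and Kdr (9.14 TPM), Tek (8.93 TPM) and Tie1 (7.72 TPM) were lower. TPM are per transcript length, so these levels can be compared between genes.

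**Figure D1:**
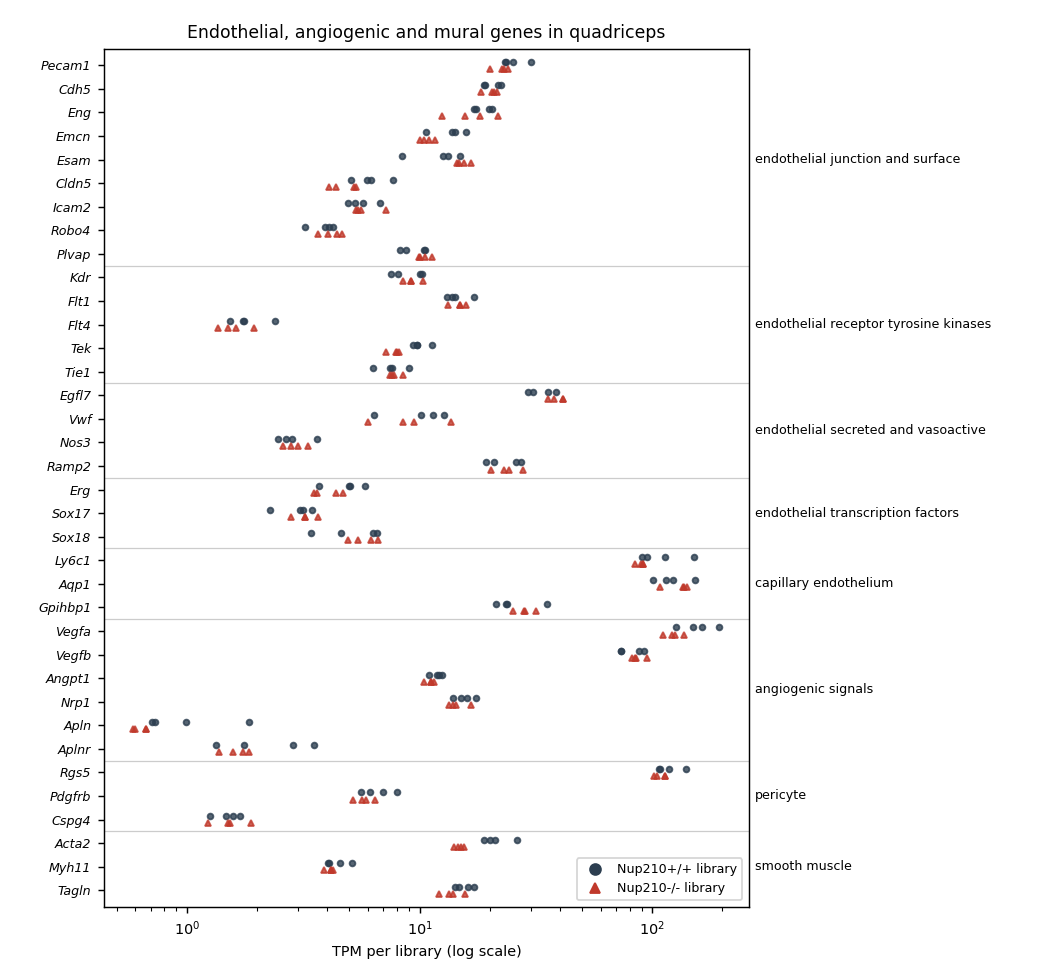
TPM per library on a log axis for the 36 genes, ordered by role, with circles for the 4 Nup210+/+ and triangles for the 4 Nup210-/- libraries. The genes span from below 1 TPM for Apln to above 100 TPM for Vegfa, Aqp1 and Rgs5, and for most genes the symbols of the genotypes are mixed.

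For the comparison, TPM were scaled between libraries by the median of ratios, 1 was added, log2 was taken, and limma was run on the 14229 genes whose mean TPM reached 0.5. All 36 genes were among them. None passed an adjusted p of 0.05, and the lowest adjusted p was 0.179, for Acta2, while 0.112% of all genes tested passed. At an unadjusted p of 0.05, 2 vascular genes were lower in Nup210-/- (Acta2 and Tek), where 7.18% of all genes were, and 3 were higher (Plvap, Esam and Egfl7), where 7.0% were. On scaled TPM the genotypes did not overlap for 4 of the 36 genes (11.1%), and for 9.38% of all genes, so the share was near that of the table as a whole. Acta2 and Tek were the 2 that lay lower, against a background of 4.6%, and Esam and Plvap were the 2 that lay higher, against 4.78%. With TPM as deposited the 3 genes without overlap (Acta2, Tek and Apln) were all lower, and 8.41% of all genes did not overlap.

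Taken as 1 list, the estimates leaned neither way. There were 19 below and 17 above 0, and their median log2 fold change was −0.0043, against −0.0061 over all genes tested. On log2(scaled TPM + 1), the 95% intervals of all 36 genes lay between −0.76 and 0.73, and 31 of them spanned 0. On that scale 30 stayed within a 1.5-fold change in either direction. The added 1 understates fold changes of low genes, so these are not bounds for them. With a pseudocount of 0.1, Apln was at −0.50 (SE 0.36) rather than −0.28. Lower and higher estimates numbered 5 and 1 for angiogenic signals, 2 and 1 for pericyte genes, and 3 and 0 for smooth muscle genes. The list of 24 endothelial identity genes had 9 lower and 15 higher estimates, with a median of 0.11, and its summed level was 458 to 519 TPM in Nup210-/- and 429 to 598 TPM in Nup210+/+. Without Nup210+/+ replicate 2 the same 24 genes again had 9 lower and 15 higher estimates but a median of 0.05, and with TPM as deposited the median was 0.03. Leaving out a library can add genes without overlap but, apart from a change in scaling, cannot remove any. That the 4 genes stayed without overlap whichever library was left out is therefore no test of them. The count rose from 4 to 7 without Nup210+/+ replicate 2, adding Cldn5, Emcn and Ly6c1 as lower, where 13.1% of all genes did not overlap. It rose to 8 without Nup210+/+ replicate 4, adding Cdh5, Egfl7, Tie1 and Vegfb as higher, where the share of all genes was 18.4%.

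**Figure D2:**
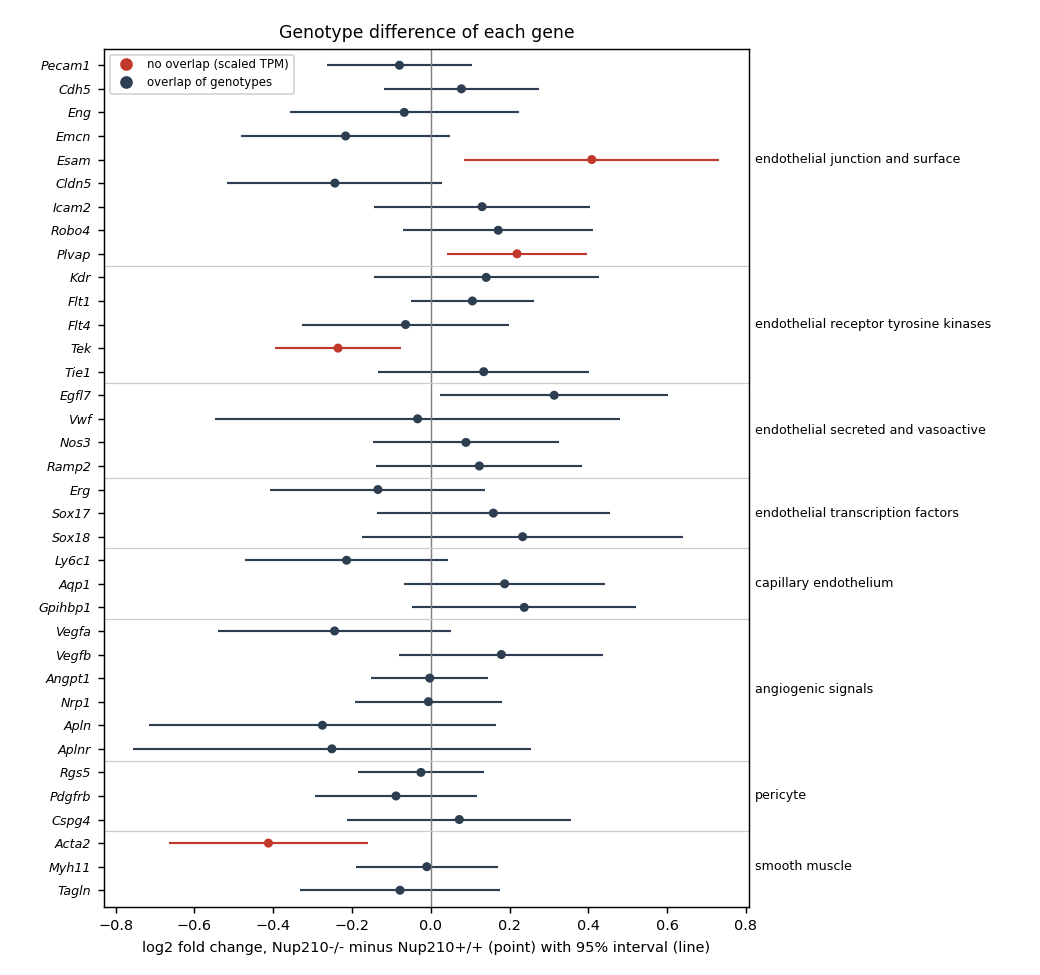
Log2 fold change of each gene, Nup210-/- minus Nup210+/+, on log2(scaled TPM + 1), as a point with its 95% interval as a line. The intervals of Acta2 and Tek lie below 0, those of Esam, Plvap and Egfl7 lie above 0, and 31 of 36 cross the line at 0; color marks the 4 genes whose genotypes do not overlap on scaled TPM.

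The 3 smooth muscle genes encode contractile proteins of the arteriolar wall, and all 3 had estimates below 0, with the genotypes apart for Acta2 and overlapping for Tagln and Myh11; the difference between these genes was not tested. Acta2 (ENSMUSG00000035783, chr19:34241090-34255590, minus strand, mm10), which encodes smooth muscle alpha-actin, had the lowest estimate of all 36 genes. Its 4 Nup210-/- libraries held 14.1, 14.7, 15.1 and 15.6 TPM and its 4 Nup210+/+ libraries held 26.3, 19.0, 20.1 and 21.1 TPM, in the order of replicates 1 to 4. The Nup210-/- values lay close together and below every Nup210+/+ value, of which replicate 1 was the highest. The mean was 14.9 ± 0.605 TPM against 21.6 ± 3.24 TPM (SD, n = 4 each), the log2 fold change was −0.41 (SE 0.11, 95% interval −0.67 to −0.16), and the limma adjusted p was 0.179. The two-sided exact permutation test gave p = 0.0286, the smallest that 70 labelings allow. The estimate was −0.32 without Nup210+/+ replicate 1 and −0.48 without Nup210+/+ replicate 3.

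Tagln, which encodes the actin-binding protein transgelin (SM22-alpha), and Myh11, which encodes smooth muscle myosin heavy chain, were measured in the same libraries. Tagln had 12.1, 13.4, 14.0 and 15.7 TPM in Nup210-/- and 17.2, 14.7, 14.2 and 16.1 TPM in Nup210+/+. Myh11 had 4.24, 4.18, 4.17 and 3.89 TPM in Nup210-/- and 4.56, 4.10, 5.11 and 4.05 TPM in Nup210+/+. For both genes the genotypes overlapped. The log2 fold changes were −0.08 for Tagln (95% interval −0.33 to 0.18) and −0.01 for Myh11 (95% interval −0.19 to 0.17). The upper bound for Acta2 (−0.16) lay inside both intervals. Separate intervals from the same libraries do not measure the difference between genes, which was not tested. The exons of Tagln overlap Pcsk7 and Gm48529 on the opposite strand.

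Because a ratio of 2 genes within a library does not depend on scaling, Acta2 was also divided by Tagln, a choice made after the values were seen and given without a test. The ratio of Acta2 to Tagln was 1.17, 1.09, 1.08 and 0.994 in Nup210-/- and 1.53, 1.29, 1.41 and 1.31 in Nup210+/+. Every Nup210+/+ library lay above every Nup210-/- library. The ratio of Acta2 to Myh11 was 3.33 to 3.997 against 3.92 to 5.76, and here Nup210-/- replicate 4 overlapped Nup210+/+ replicate 3. Acta2 to Rgs5 also overlapped, at 0.1252 to 0.1531 against 0.1445 to 0.222. Smooth muscle genes are classical targets of serum response factor at CArG boxes. The 250 bases before the RefSeq start of Acta2 (chr19:34255374-34255623, GRCm38.p6, minus strand) held 2 CArG-like sites, 84 and 34 bases before the start, over which GENCODE places an untranslated first exon. They are shown because they are the sequence for which this promoter is known, with the CArG-like site in capitals and 10 bases on either side.
Acta2, site at chr19:34255448-34255457: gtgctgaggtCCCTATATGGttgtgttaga
Acta2, site at chr19:34255398-34255407: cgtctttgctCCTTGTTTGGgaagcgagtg
A CArG-like site was counted where 5 of its 6 central bases were A or T, a rule that reads the same on both strands. At least 1 such site stood in 8.59% of all 32851 promoter windows and at least 2 in 0.67%. Among the 26 windows of the 20 vascular genes that had one, sites stood in 4, those of Acta2, Eng, Kdr and Egfl7, and only Acta2 had 2. This is a description of letters and not of binding.

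**Figure D3:**
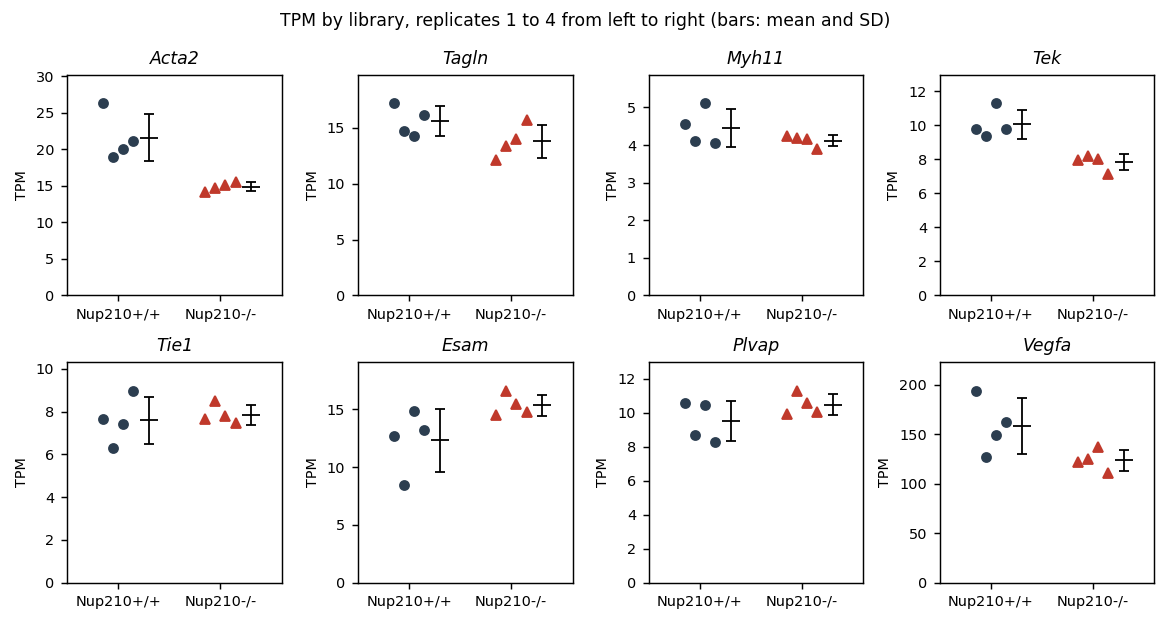
TPM by library for 8 genes, replicates 1 to 4 from left to right within each genotype, with the mean and SD as bars and each vertical axis starting at 0. Acta2 and Tek lie lower in every Nup210-/- library than in any Nup210+/+ library, whereas Tagln, Myh11, Tie1, Esam, Plvap and Vegfa overlap on deposited TPM.

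The 5 receptor tyrosine kinase genes had 2 lower and 3 higher estimates, with a median log2 fold change of 0.11. Tek (ENSMUSG00000006386, chr4:94739289-94874976, plus strand), which encodes the angiopoietin receptor Tie2, differed most. It had 7.96, 8.20, 8.0 and 7.16 TPM in Nup210-/- and 9.75, 9.38, 11.3 and 9.75 TPM in Nup210+/+. The genotypes did not overlap on deposited or on scaled TPM, and Nup210+/+ replicate 3 was the highest library. The mean was 7.83 ± 0.459 TPM against 10.04 ± 0.845 TPM (SD, n = 4 each), with a log2 fold change of −0.24 (SE 0.07, 95% interval −0.39 to −0.08), limma adjusted p = 0.202 and exact permutation p = 0.0286. The estimate stayed between −0.26 and −0.21 whichever library was left out.

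Tie1, the receptor that pairs with Tie2, had 7.65, 8.51, 7.79 and 7.46 TPM in Nup210-/- and 7.64, 6.29, 7.44 and 8.98 TPM in Nup210+/+. The Nup210-/- values fell inside the range of Nup210+/+, and the log2 fold change was 0.13 (95% interval −0.13 to 0.40), with 0.06 without Nup210+/+ replicate 2 and 0.24 without Nup210+/+ replicate 4. The ratio of Tek to Tie1, chosen after the values were seen, was 1.04, 0.964, 1.03 and 0.960 in Nup210-/- and 1.28, 1.49, 1.52 and 1.09 in Nup210+/+. In Nup210-/- muscle the transcripts of these receptors were thus about equal in number, and in each Nup210+/+ library Tek exceeded Tie1 by more than in any Nup210-/- library. The ratio of Tek to Cdh5, an endothelial reference, was 0.371 to 0.399 against 0.435 to 0.522, also without overlap. Angpt1, the mural ligand of Tie2, had 11.1 ± 0.480 TPM and 11.9 ± 0.651 TPM (SD, n = 4 each), with a log2 fold change of −0.0026 (95% interval −0.15 to 0.15) that was 0.02 with upper-quartile scaling.

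The promoter of Tek is shown because Tek was the endothelial gene with the lowest unadjusted p. Its 250 bases before the RefSeq start are given below on the plus strand of GRCm38.p6, with the core letters of ETS factors, the family of the endothelial regulator Erg, in capitals (GGAA, or TTCC where the other strand carries it).
Tek, chr4:94739039-94739288: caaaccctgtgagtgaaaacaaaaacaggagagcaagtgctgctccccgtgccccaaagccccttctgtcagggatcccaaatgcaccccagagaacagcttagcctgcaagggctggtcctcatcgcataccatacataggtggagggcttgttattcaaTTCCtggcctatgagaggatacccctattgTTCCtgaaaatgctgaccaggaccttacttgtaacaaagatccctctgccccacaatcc
This window held 2 copies on the other strand, where the median over all windows was 3 and 93.4% of windows held at least 1. Of the 26 vascular windows, 24 held the core and none held a CArG box with 6 A or T in its centre, which stood in 1.47% of all windows.

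The VEGF receptor genes overlapped between genotypes. Flt1, which encodes the high-affinity receptor VEGFR1 and had the highest level of the 5, had 14.9, 14.96, 15.8 and 13.2 TPM in Nup210-/- and 14.2, 13.8, 17.2 and 13.2 TPM in Nup210+/+. Its log2 fold change was 0.11 (SE 0.07). Kdr, which encodes the main signaling receptor VEGFR2, had 9.31 ± 0.795 TPM against 8.96 ± 1.35 TPM, and Flt4, which encodes VEGFR3, had 1.61 ± 0.246 TPM against 1.85 ± 0.372 TPM (SD, n = 4 each). Neither had an interval free of 0, from −0.14 to 0.43 for Kdr and from −0.33 to 0.20 for Flt4. The Kdr estimate of 0.14 was 0.07 without Nup210+/+ replicate 2 or replicate 3, and 0.23 without replicate 4.

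Of the 9 junction and surface genes, 4 had lower and 5 had higher estimates, with a median of 0.08. Pecam1, which encodes the adhesion molecule CD31, had the highest level of them. It had 24.03, 23.2, 22.6 and 20.1 TPM in Nup210-/- and 23.2, 23.6, 30.0 and 25.1 TPM in Nup210+/+, with overlap and with Nup210+/+ replicate 3 highest. Its log2 fold change was −0.08 (95% interval −0.26 to 0.10). Cdh5 was closer still, with 20.3 ± 1.40 TPM against 20.5 ± 1.77 TPM (SD, n = 4 each) and a log2 fold change of 0.08 (95% interval −0.12 to 0.28) that was −0.01 with TPM as deposited.

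Esam (ENSMUSG00000001946, chr9:37528078-37538319, plus strand), which encodes an adhesion molecule of endothelial tight junctions, had the highest estimate of the 36 genes. It had 14.5, 16.6, 15.4 and 14.8 TPM in Nup210-/- and 12.7, 8.44, 14.9 and 13.2 TPM in Nup210+/+. As deposited the genotypes overlapped, because Nup210+/+ replicate 3 lay above 2 of the Nup210-/- libraries, and they separated after scaling. The log2 fold change was 0.41 (SE 0.14, 95% interval 0.08 to 0.73, limma adjusted p = 0.254). Nup210+/+ replicate 2 was by far the lowest library, and without it the log2 fold change was 0.25. The ratio of Esam to Cdh5 within a library, which needs no scaling, was 0.696 to 0.810 in Nup210-/- and 0.445 to 0.688 in Nup210+/+, without overlap but with a narrow gap.

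Plvap, which encodes the diaphragm protein of fenestrae and caveolae, was the other gene that separated upward only after scaling. It had 9.94, 11.3, 10.6 and 10.1 TPM in Nup210-/- and 10.6, 8.71, 10.4 and 8.26 TPM in Nup210+/+. As deposited, Nup210+/+ replicates 1 and 3 lay among the Nup210-/- libraries. The log2 fold change was 0.22 (SE 0.08, 95% interval 0.04 to 0.40, limma adjusted p = 0.264), and the ratio of Plvap to Cdh5 overlapped, at 0.476 to 0.550 against 0.368 to 0.556. The median log2 fold change of all genes tested was −0.08 with TPM as deposited and −0.01 after scaling, and with TPM as deposited Plvap stood at 0.13 and Esam at 0.32.

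The remaining junction genes pointed in both directions, each with overlap. Emcn, which encodes the sialomucin endomucin of capillaries and veins, had 10.75 ± 0.698 TPM against 13.6 ± 2.17 TPM, and Cldn5, which encodes the tight junction protein claudin 5, had 4.75 ± 0.614 TPM against 6.23 ± 1.10 TPM (SD, n = 4 each). Their log2 fold changes were −0.22 and −0.24, each with an interval that reached just above 0. That of Emcn was −0.14 without Nup210+/+ replicate 1 and −0.32 without Nup210+/+ replicate 2. Eng, the TGF-beta coreceptor endoglin, had an estimate of −0.07, and its values ran from 12.5 to 21.7 TPM within Nup210-/-, wider than the 17.2 to 20.4 TPM of Nup210+/+. Icam2, an endothelial ligand of leukocyte integrins, had 0.13, and Robo4, an endothelial receptor that stabilizes vessels, had 0.17, and both intervals spanned 0. Without Nup210+/+ replicate 2 these estimates were 0.21 for Icam2 and 0.10 for Robo4, and Icam2 was between 0.06 and 0.08 without Nup210-/- replicate 3, Nup210+/+ replicate 1 or Nup210+/+ replicate 3.

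The other endothelial groups had positive medians and no gene without overlap. Among 4 secreted and vasoactive genes, Egfl7, which encodes an endothelial matrix protein, had the highest level, with 37.9, 35.5, 41.4 and 41.2 TPM in Nup210-/- and 35.6, 30.6, 29.1 and 38.4 TPM in Nup210+/+. Nup210+/+ replicates 1 and 4 reached into the Nup210-/- range. Its log2 fold change was 0.31 (SE 0.13, limma adjusted p = 0.313), and its exons overlap those of Gm20532 and Mir126a on the same strand. Ramp2, a subunit of the adrenomedullin receptor, had an estimate of 0.12, and 29.5% of its 75-base stretches also occur in the neighbouring gene Vps25, so its reads may be divided between them. Its estimate was 0.04 without Nup210+/+ replicate 2, 0.07 without Nup210-/- replicate 3 and 0.21 without Nup210-/- replicate 2. Nos3, the endothelial nitric oxide synthase, had 0.09. Vwf, which encodes von Willebrand factor, had −0.03 with values from 6.03 to 13.7 TPM in Nup210-/- and 6.40 to 12.8 TPM in Nup210+/+, the widest relative spread of the Nup210-/- group.

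Among the transcription factor genes, Sox18, a SoxF factor of endothelial and lymphatic identity, had the highest level. It had 5.43, 4.92, 6.65 and 6.17 TPM in Nup210-/- and 4.58, 3.42, 6.30 and 6.57 TPM in Nup210+/+, and the genotypes overlapped. Its log2 fold change of 0.23 became 0.08 without Nup210+/+ replicate 2, the lowest library, and 0.37 without Nup210+/+ replicate 4. Sox17, the SoxF factor of arteries, had an estimate of 0.16 and the ETS factor gene Erg had −0.13. Both intervals spanned 0. Without Nup210+/+ replicate 2 the estimates were 0.07 for Sox17 and −0.06 for Erg, without Nup210+/+ replicate 4 they were 0.24 and −0.21, and Erg was at −0.09 without Nup210-/- replicate 2.

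The 3 capillary genes spanned both directions. Aqp1 had 135, 137, 140 and 108 TPM in Nup210-/- and 114, 101, 152 and 123 TPM in Nup210+/+. Nup210-/- replicate 4 was the lowest of its genotype and Nup210+/+ replicate 3 the highest of all. The estimate was 0.19 (95% interval −0.07 to 0.44). Gpihbp1, which carries lipoprotein lipase to the capillary lumen, had 0.24 (95% interval −0.05 to 0.52). Without Nup210+/+ replicate 2 these were 0.10 for Aqp1 and 0.16 for Gpihbp1, and without Nup210+/+ replicate 3 they were 0.26 and 0.35. Ly6c1 had −0.21 (95% interval −0.47 to 0.04), with 84.4 to 91.3 TPM in Nup210-/- against 90.6 to 151 TPM in Nup210+/+. Its estimate was −0.10 without Nup210+/+ replicate 3, its highest library, and −0.31 without Nup210+/+ replicate 2. Of its 75-base stretches, 19.1% are shared with Ly6a and Ly6c2.

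Of the 6 angiogenic signal genes, 5 had lower estimates and 1 had a higher one, and none separated the genotypes on scaled TPM. Vegfa had 122, 125, 137 and 111 TPM in Nup210-/- and 194, 127, 150 and 163 TPM in Nup210+/+. Nup210+/+ replicate 2 lay inside the Nup210-/- range and the other 3 lay above it. The log2 fold change was −0.24 (SE 0.13, 95% interval −0.54 to 0.05, limma adjusted p = 0.427), and it was −0.14 without Nup210+/+ replicate 1, the highest library, and −0.35 without Nup210+/+ replicate 2. Vegfb, a VEGF family member that binds Flt1 and is abundant in oxidative tissue, had 81.4, 84.7, 94.8 and 84.3 TPM in Nup210-/- and 87.3, 73.2, 73.5 and 92.4 TPM in Nup210+/+. It had an estimate of 0.18, with overlap, which was 0.09 without Nup210+/+ replicate 3 and 0.28 without Nup210+/+ replicate 4. The ratio of Vegfa to Vegfb, chosen after the values were seen, was 1.498, 1.48, 1.45 and 1.32 in Nup210-/- and 2.22, 1.73, 2.04 and 1.76 in Nup210+/+, so every Nup210+/+ library lay above every Nup210-/- library.

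**Figure D4:**
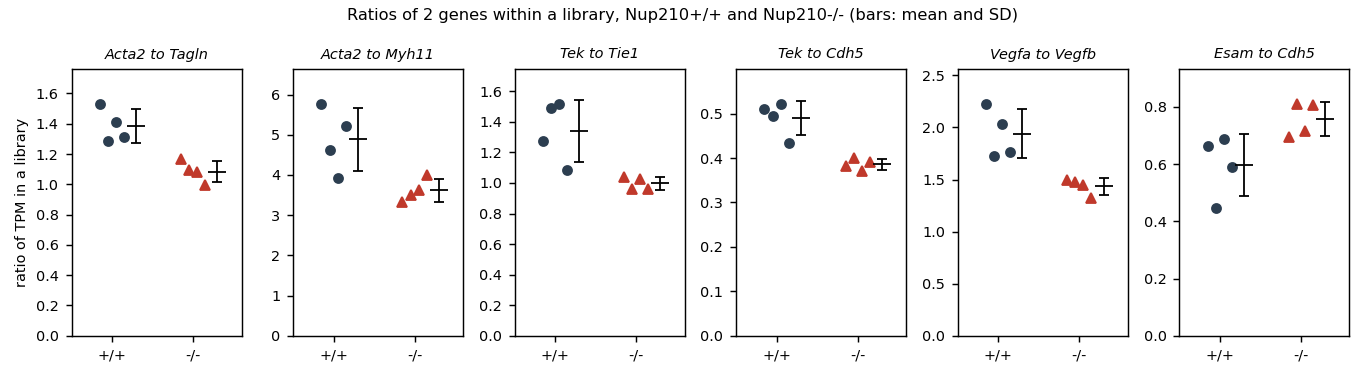
Ratio of TPM of 2 genes within each library, replicates 1 to 4 from left to right, with mean and SD as bars; each axis starts at 0. Acta2 to Tagln, Tek to Tie1, Tek to Cdh5 and Vegfa to Vegfb lie lower in all Nup210-/- libraries, Esam to Cdh5 lies higher, and Acta2 to Myh11 overlaps. The other ratios computed, which are not drawn, all overlapped: Acta2 to Rgs5, Plvap to Cdh5, Flt1 to Kdr and Cd34 to Cdh5. The ratios were chosen after values were seen, and the share of all gene pairs that separate was not computed.

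Apelin and its receptor, a pair found on sprouting and activated endothelium, were low in all libraries. Apln had 0.670, 0.600, 0.590 and 0.670 TPM in Nup210-/- and 0.990, 0.710, 0.730 and 1.85 TPM in Nup210+/+, and on deposited TPM its genotypes did not overlap. On scaled TPM they did. Its log2 fold change of −0.28 and that of Aplnr, −0.25, became −0.09 and −0.07 without Nup210+/+ replicate 4, which was the highest library for both, and Aplnr was at −0.43 without Nup210+/+ replicate 3. Nrp1, which encodes the VEGF coreceptor neuropilin 1, had −0.01 (95% interval −0.19 to 0.18), and its estimate was 0.02 with upper-quartile scaling.

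The 3 pericyte genes showed no separation. Rgs5 had 113, 113, 105 and 102 TPM in Nup210-/- and 118, 106, 139 and 108 TPM in Nup210+/+, with Nup210+/+ replicate 3 highest. Its log2 fold change was −0.02 (95% interval −0.18 to 0.13) and 0.0012 with upper-quartile scaling. Pdgfrb, the PDGF receptor that recruits mural cells, had −0.09 (95% interval −0.29 to 0.12) and Cspg4 had 0.07 (95% interval −0.21 to 0.36).

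On deposited TPM, the vascular genes varied less among Nup210-/- libraries than among Nup210+/+ libraries. The median coefficient of variation of TPM was 8.93% in Nup210-/- and 15% in Nup210+/+, where all genes tested had 12.2% and 16.1%. It was larger in Nup210+/+ for 30 of the 36 genes, and for 62.3% of all genes tested. Within Nup210+/+, also on deposited TPM, replicate 2 was the lowest library for 22 genes and replicate 3 the highest for 15. The scaling factors ran from 0.954 to 1.12 in Nup210+/+, with replicate 3 highest, and from 0.936 to 1.004 in Nup210-/-. Deposited values carry these differences between libraries, and the coefficient of variation was not computed on scaled TPM. On scaled values the mean deviation of the 24 endothelial genes from their 8-library mean was −0.19 (log2) in Nup210+/+ replicate 2 and between −0.00083 and 0.07 in the other 7 libraries. The same library had the granulocyte precursor and Y-linked RNA described above, whose part in this was not tested.

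**Figure D5:**
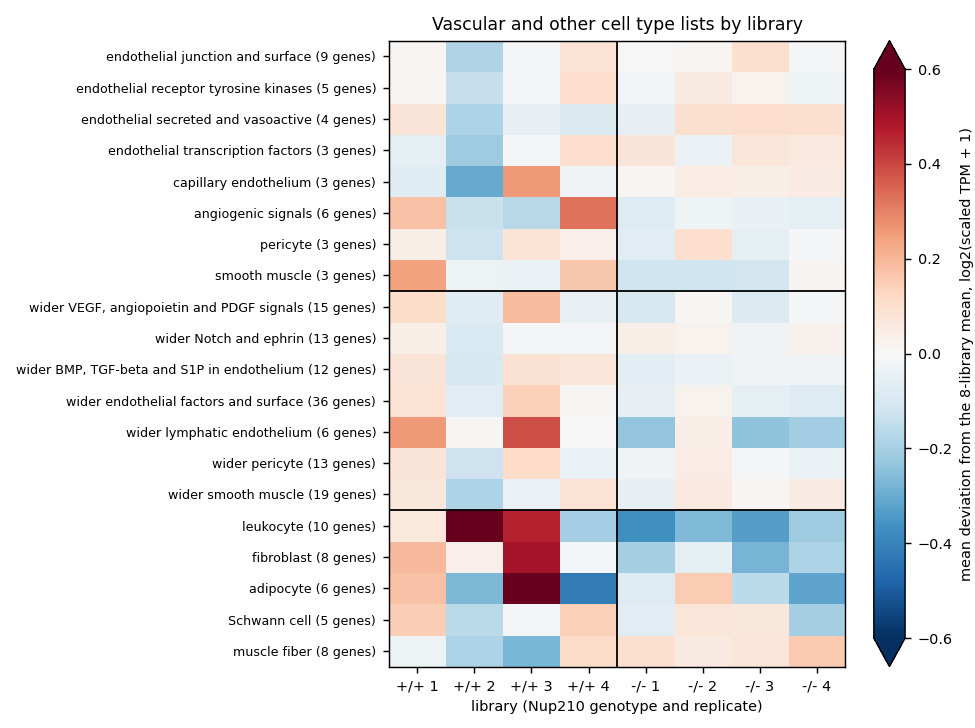
Mean deviation of each gene list from its 8-library mean, on log2(scaled TPM + 1), as color for the 4 Nup210+/+ libraries (left) and the 4 Nup210-/- libraries (right), with vascular lists of this report on top, wider vascular lists in the middle and other cell types below; the color scale ends at −0.6 and 0.6, and values beyond take the end color. The 5 lists of endothelial identity genes on top are blue in Nup210+/+ replicate 2 (−0.14 to −0.30), the wider lymphatic list is blue in Nup210-/- replicates 1, 3 and 4 (−0.21 to −0.24), and the leukocyte and adipocyte lists reach beyond the scale in a Nup210+/+ library.

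A wider set of 116 further vascular genes was counted in the same way, and 110 of them were tested, some in more than 1 list. Of these, 68 had lower and 42 had higher estimates, with a median log2 fold change of −0.05, and none passed the adjusted threshold. At an unadjusted p of 0.05, 12 were lower, where 7.18% of all genes were, and 11 were higher, where 7.0% were. The genotypes did not overlap for 9 lower and 7 higher genes, together 14.5% of the 110 against 9.38% of all genes. The 7 higher, named after their values were seen, were Epas1, Rasip1, Vcam1, Smtn, Mef2c, Des and Synpo2. Mef2c, which the study describes as a regulator of muscle fiber type, had means of 239 TPM in Nup210-/- and 221 TPM in Nup210+/+ (log2 fold change 0.21, limma adjusted p = 0.126). The wider counts are thus not of vessel cells alone, and the part of muscle fibers in them was not tested. For each list, the genes with the lowest and the highest estimate are named.

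Among 15 genes of VEGF, angiopoietin and PDGF signals, Thbs1, an inhibitor of angiogenesis, had 2.94 to 4.73 TPM in Nup210-/- and 5.27 to 7.56 TPM in Nup210+/+, without overlap (log2 fold change −0.62, SE 0.14, limma adjusted p = 0.122). The highest was Epas1, the endothelial hypoxia factor HIF-2alpha, at 0.23. Of 13 Notch and ephrin genes, the ligand gene Jag1 was at −0.22 and the endothelial receptor gene Notch4 at 0.49. In the BMP, TGF-beta and sphingosine phosphate list of 12, Tgfbr2, the TGF-beta type II receptor, had 13.8 to 16.1 TPM against 17.0 to 28.9 TPM, without overlap (−0.40, limma adjusted p = 0.169), and the sphingosine phosphate receptor gene S1pr1 was at 0.30. Among 36 further endothelial factors and surface genes, 23 had lower and 13 had higher estimates, with a median of −0.11. The genotypes did not overlap for 3 lower and 3 higher genes, 16.7% against 9.38% of all genes. Named after their values were seen, the lower were Cd34 (−0.43), Thbd (−0.50) and Cyyr1 (−0.26), and the higher were Mef2c, Rasip1 (0.26) and Vcam1 (0.24). Ackr1, the chemokine receptor of venules, was lowest at −0.65 (2.45 to 4.51 TPM against 4.60 to 7.16 TPM on deposited values, with overlap after scaling, limma adjusted p = 0.168), and S1pr1 was again highest.

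The wider mural lists had medians of −0.01. Of 13 pericyte genes, 7 had lower and 6 had higher estimates, with Anpep, the aminopeptidase CD13, at −0.39 and Cox4i2, a subunit isoform of cytochrome oxidase, at 0.45 with overlap. The genotypes did not overlap for 2 pericyte genes (15.4% of the 13, against 9.38% of all genes). Both were lower, where 4.6% of all genes were. They were Anpep and, named after its value was seen, the metalloreductase gene Steap4 (−0.36). Of 19 tested smooth muscle genes, 10 had lower and 9 had higher estimates, from −0.32 for Pln, which encodes the calcium pump regulator phospholamban, to 0.38 for Lmod1, the smooth muscle leiomodin, both with overlap. Pln was at −0.15 without Nup210-/- replicate 1. At an unadjusted p of 0.05 by limma, 5 of these 19 genes were higher, where 7.0% of all genes were, and 0 were lower, where 7.18% were. The genotypes did not overlap for 3 higher genes, against 4.78% of all genes, and for 1 lower one, against 4.6%. The 4 were named after their values were seen. They were Smtn (0.33), which encodes smoothelin, Des (0.24), which encodes desmin, Synpo2 (0.25), which encodes an actin-binding Z-disc protein, and Mylk (−0.21), the myosin light chain kinase gene. Des and Synpo2 are also expressed by muscle fibers, whose 8 listed genes all had higher estimates, and the part of fibers here was not tested. This wider list summed to means of 22170 TPM in Nup210-/- and 22070 TPM in Nup210+/+. Of these, Tpm1 held 15820 and 16120 TPM and Tpm2 held 4634 and 4361 TPM. The 3 smooth muscle genes described above summed to 32.8 and 41.6 TPM. The counts and median of the wider list are therefore not those of mural cells alone. Among these lists the adjusted p was never below 0.122. Several of the wider genes, Thbs1, Tgfbr2 and Anpep among them, are also expressed by fibroblasts or leukocytes. The estimates of those lists were lower in Nup210-/- as given above, with overlapping sums for fibroblasts, and their part in the wider genes was not tested.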

How the data were processed

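Quadriceps RNA from 4 Nup210-/- and 4 Nup210+/+ mice was measured, with groups and replicate numbers taken from the sample labels. The authors enriched polyadenylated RNA, prepared directional libraries, sequenced them single-end, trimmed with cutadapt 2.3, aligned to mm10 with STAR 2.7.0d and estimated expression with RSEM 1.3.1 on Ensembl annotation, as the methods and the submitters' processing notes state. They deposited TPM per gene and library for 47643 genes, without pooling. TPM hold no depth and are relative to the other genes of a library. The authors' own test on estimated counts was not used here.

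TPM were divided by median-of-ratios factors (0.936 to 1.12, from 15225 genes above 0 in all libraries). Log2 of scaled TPM plus a pseudocount of 1 was fitted with limma 3.58.1 in R 4.3.3 (intensity trend, genotype as the only term) for the 14229 genes whose mean TPM was 0.5 or more, with Benjamini-Hochberg adjustment over all of them. Fold changes on this scale understate those of low genes. Single genes were compared by two-sided exact permutation tests of scaled TPM over 70 labelings. The nature of the replicates beyond separate animals is not stated, so p-values measure the spread between these libraries. The fit was tested on simulated data.

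The vascular genes and lists were chosen with earlier results of these data known. All 36 genes are described: those without overlap of genotypes and the highest gene of each role list with all 8 values, and of the wider lists the lowest and highest estimate. Tagln, Myh11, Tie1, Vegfb and Apln were given in full, and a few wider genes named, and ratios and CArG-like sites added, after values were seen. Vegfd and Cavin2 appear in the table as Figf and Sdpr. Coordinates and exons are from GENCODE M21 (GRCm38, mm10), matched by Ensembl identifier. Exons of 8 of the 36 genes overlap another gene, 3 on the same strand, and the strand setting of the authors' counting is not given in the sources used here. Promoter windows are from RefSeq (GRCm38.p6), found for 20 of the 36 genes. Matplotlib 3.10.9 under Python 3.11.15 drew the figures. The alternatives were another pseudocount, other filters, TPM as deposited, upper-quartile scaling, eBayes without the trend, library weights, the replicate number as a block, and each library left out in turn.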

Additional observations from a re-analysis of the deposited data

Results flagged for a closer look

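In 1 of 72 groups of 4 libraries examined, a single library lay farther from the others than Dixon's 95% criterion allows, where chance would give about 3.6. It was Icam2 in Nup210-/- replicate 3, with 7.19 TPM, where the remaining Nup210-/- libraries held 5.35 to 5.63 TPM and a gap of 0.848 of the group's range. The Nup210+/+ libraries reached 6.79 TPM, and without Nup210-/- replicate 3 the log2 fold change of Icam2 was 0.06.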

How the results depend on the processing

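The count of vascular genes past an adjusted p of 0.05 was 0 under each of the 16 alternatives, with 4 to 8 at an unadjusted p of 0.05, while the count over all genes ranged from 0 to 84. The count without overlap of genotypes was 4 to 8 when 1 library was left out, a step that, apart from scaling, cannot lower it. The median log2 fold change of the vascular genes ranged from −0.0887 with TPM as deposited, where that of all genes was −0.0848, to 0.0367, crossing 0 in several settings. A filter at a mean TPM of 1 left out Apln. Over the alternatives, limma adjusted p ranged from 0.0711 to 0.363 for Acta2 and from 0.144 to 0.378 for Tek. Of the single genes, 25 values changed sign, for 8 genes whose estimates lay between −0.07 and 0.08. With TPM as deposited, Cdh5 was at −0.0124 and Prox1 at −0.000645; with upper-quartile scaling, Angpt1 was at 0.0216, Nrp1 at 0.0186, Rgs5 at 0.00123 and Myh11 at 0.0111; with library weights, Prox1 was at −0.00712. With 1 library left out, the range was −0.0287 to 0.0245 for Angpt1, −0.17 to 0.0476 for Eng, −0.0404 to 0.0139 for Myh11, −0.0578 to 0.0305 for Nrp1, −0.0305 to 0.103 for Prox1, −0.0705 to 0.0174 for Rgs5 and −0.21 to 0.13 for Vwf; the cause was not tested. Replicate numbers are shared by the genotypes, but deviations of same-numbered libraries correlated at only −0.03, 0.01, 0.02 and 0.09 across genes, and not every library correlated best with its own number, so the numbers were not taken to pair the animals. With the replicate number as a block, 0 vascular genes passed the adjusted threshold and 5 had an unadjusted p of 0.05, and 0 of all genes passed where 16 did without it. Depth is unknown, so the limit on low genes such as Apln cannot be given.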

Other observations

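Lymphatic endothelium drains the tissue and shares Flt4 with blood vessels. Of 6 lymphatic genes tested, 5 had lower estimates in Nup210-/- and the median log2 fold change was −0.34, against −0.01 for all genes tested. None passed the adjusted threshold, and 3 had an unadjusted p of 0.05 (chosen after their values were seen: Lyve1, Ccl21a and Mmrn1), where 7.18% of all genes were lower at that p. The summed level was 40.6, 55.4, 46.3 and 45.7 TPM in Nup210-/- and 70.2, 62.4, 89.5 and 55.1 TPM in Nup210+/+. Nup210-/- replicate 2 lay just above Nup210+/+ replicate 4, and all others separated. Lyve1, the hyaluronan receptor of lymphatic vessels and of some macrophages, had 7.26, 9.04, 10 and 7.53 TPM against 15.2, 9.88, 24.5 and 9.92 TPM, with overlap (log2 fold change −0.58, SE 0.22, limma adjusted p = 0.292), and −0.36 without Nup210+/+ replicate 3. Ccl21a, a chemokine of lymphatic vessels, had 21.9, 32.8, 26.3 and 27.8 TPM against 38.7, 37.5, 44.7 and 33.3 TPM, without overlap on scaled values (−0.40, SE 0.11, limma adjusted p = 0.169). Prox1, the factor that defines lymphatic identity, had 0.04 with overlap, at 0.55 to 1.10 TPM over all libraries. Fibroblast and leukocyte sums were lower in Nup210-/- as well, and their part in this was not tested.

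Adipocyte genes summed to 231 to 424 TPM in Nup210-/- and to 272 to 713 TPM in Nup210+/+, with replicate 3 highest. Red cell genes summed to 880 to 2688 TPM and 1216 to 5305 TPM, with Nup210+/+ replicate 2 highest. Schwann cell genes summed to 38.9 to 51.0 TPM and 45.8 to 61.8 TPM. For each of these lists the genotypes overlapped.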
